A study of Mus musculus with 8 samples.

Results

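The genes described here encode the receptor tyrosine kinase Ret, ligands and co-receptors of the GDNF family, and neurotrophins with their Trk receptors, in the ventral tegmental area (VTA) of juvenile mice. The members were taken by gene symbol as Ret, Gfra1, Gfra2, Gdnf, Nrtn, Bdnf, Ntf3, Ntrk2 and Ntrk3, which are 9 of the 54735 genes listed in the count table. All 9 had counts in at least 3 of the 8 libraries, and 8 of them passed the filter on low counts, with Gdnf as the exception. No measured value entered the rule, but the members were proposed after results of these data were known.

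DBA2/J mice, labelled as males of age P21, were compared after social stress (SS, n = 4) or no handling (CTR, n = 4). According to the study's methods the pups were killed on the day after the last session. Each SS pup was placed with an unfamiliar adult male, a gonadectomized CD1 mouse, for 30 min per day from P14 to P21, a period given as 7 days in the labels. CTR litters stayed undisturbed with their mothers. No transgene or engineered deletion is described for these mice. Both groups shared strain, age and labelled sex, and left and right VTA punches of 1 mouse were pooled into 1 library. A litter could give more than 1 pup of a sex, and the labels do not name litters, so littermates among the libraries cannot be told apart from unrelated pups. The libraries are named here by group and replicate number, which run 1, 2, 3, 5 in CTR and 2, 3, 4, 5 in SS. Where 4 values are listed for a group, they follow this order.

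GDNF-family ligands bind a co-receptor that is anchored to the membrane by a lipid, and the complex of ligand and co-receptor engages Ret, which then phosphorylates itself and passes the signal to the MAPK and PI3K cascades. Gfra1 is the preferred co-receptor of GDNF and Gfra2 that of neurturin, the product of Nrtn. In the midbrain Ret is a well-known feature of dopamine neurons, whose upkeep in adult life depends in part on it. Neurotrophins bind the Trk kinases directly: BDNF binds TrkB, the product of Ntrk2, and NT-3, the product of Ntf3, binds TrkC, the product of Ntrk3. TrkB and TrkC also occur in forms that lack the kinase domain, and astrocytes hold much of the truncated TrkB.

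The reads were single-end and 75 bases long, so each coding sequence was compared with that of the nearest relative among the members to see whether a read could be assigned to the wrong gene. The longest runs of identical bases in annotated coding transcripts (GENCODE M21 on GRCm38, which is mm10 under another name) are given, because they set how well the co-receptors, the Trk receptors and the ligands can be told apart.
Gfra1 and Gfra2, 28 bases: actgccgctgcaagcggggcatgaagaa
Ntrk2 and Ntrk3, 23 bases: gacccactcatcatggtctttga
Bdnf and Ntf3, 17 bases: atagacacttcctgtgt
Gdnf and Nrtn, 10 bases: ggccaccgcc
Each run is shorter than a read. The run shared by the co-receptors starts at coding base 257 of Gfra1 and at coding base 275 of Gfra2, and that of the Trk receptors at coding bases 1828 and 1831.

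Counts per gene do not separate isoforms. Ret has 2 annotated coding transcripts, which share their first 3191 coding bases and differ in the end that encodes the tail of the receptor. The longer form has 1115 residues and the shorter one 1073. Their own coding ends are shown because a gene count adds up reads from both.
Ret, longer form, last 154 coding bases: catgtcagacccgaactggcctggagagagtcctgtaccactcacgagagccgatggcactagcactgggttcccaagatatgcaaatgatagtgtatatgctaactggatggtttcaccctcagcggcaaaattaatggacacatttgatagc
Ret, shorter form, last 28 coding bases: tagaatttcacatgcatttactagattc
The same holds for Ntrk2, where the full-length form of 821 residues and the shorter form of 476 residues share 1394 coding bases. The shorter form ends with 34 coding bases of its own.
Ntrk2, shorter form, last 34 coding bases: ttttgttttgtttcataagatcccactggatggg
An Ntrk2 count can therefore not be divided between the 2 forms here.

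The genes lie on 8 chromosomes in GRCm38. Ret (6:118151745-118197718, minus strand) and Ntf3 (6:126101412-126166910, minus strand) share chromosome 6. Gfra1 lies at 19:58235604-58455909 on the minus strand and Gfra2 at 14:70890120-70979838 on the plus strand. Gdnf lies at 15:7810846-7837575 (plus) and Nrtn at 17:56751325-56757530 (minus). Bdnf lies at 2:109674700-109727007 (plus), Ntrk2 at 13:58806569-59133970 (plus) and Ntrk3 at 7:78175959-78738012 (minus). All values are for reads assigned to exons of the gene. An antisense gene overlaps Gfra1 (Gm16277), Bdnf (Gm45346) and Ntrk3 (Gm9885), and these collected 18, 117 and 773 counts over the 8 libraries. Whether the counting used strand is not stated, so reads from such partners cannot be told apart from those of the members.

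Library totals ranged from 20036086 to 47319997 counts. Levels are given as CPM, counts per M counts of the library after TMM scaling (M for mega), and log2 fold changes are SS relative to CTR with their standard error (SE) from edgeR's quasi-likelihood test over 16538 genes. Transcripts that differ by sex went against the male label in 1 library of each group: CTR-5 had 14997 counts of Xist and SS-5 had 6551, compared with 0 to 3 in the other 6, whereas summed counts of the Y-linked Uty, Kdm5d, Ddx3y and Eif2s3y were 3 in CTR-5, 0 in SS-5 and 2293 to 7892 elsewhere. The log2 fold change of each tested member is therefore also given without these libraries. CTR-1 and CTR-2 were less rich, with 1425 and 1236 tested genes at 0 counts, compared with 22 to 459 in the others. Over all genes, 14 of 16538 (0.0847%) passed an adjusted p of 0.05 in the edgeR test, and all 14 were lower in SS. At an unadjusted p under 0.05, 3.7% of genes were lower in SS and 2.85% higher. All SS values were lower than all CTR values for 2.21% of genes and higher for 2.47%.

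None of the 8 tested members passed the adjusted threshold. Ret came closest, at 40.4% of the CTR level in SS, and its co-receptors differed in opposite directions, Gfra1 lower and Gfra2 higher in SS. At an unadjusted p under 0.05, 3 members were lower (Ret, Gfra1 and Ntf3) and 1 was higher (Gfra2). The groups did not overlap for Ret and Gfra1, with SS below, and for Gfra2, with SS above. The median log2 fold change of the 8 tested members was -0.10, and that of all tested genes was 0.0037.

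**Figure D1:**
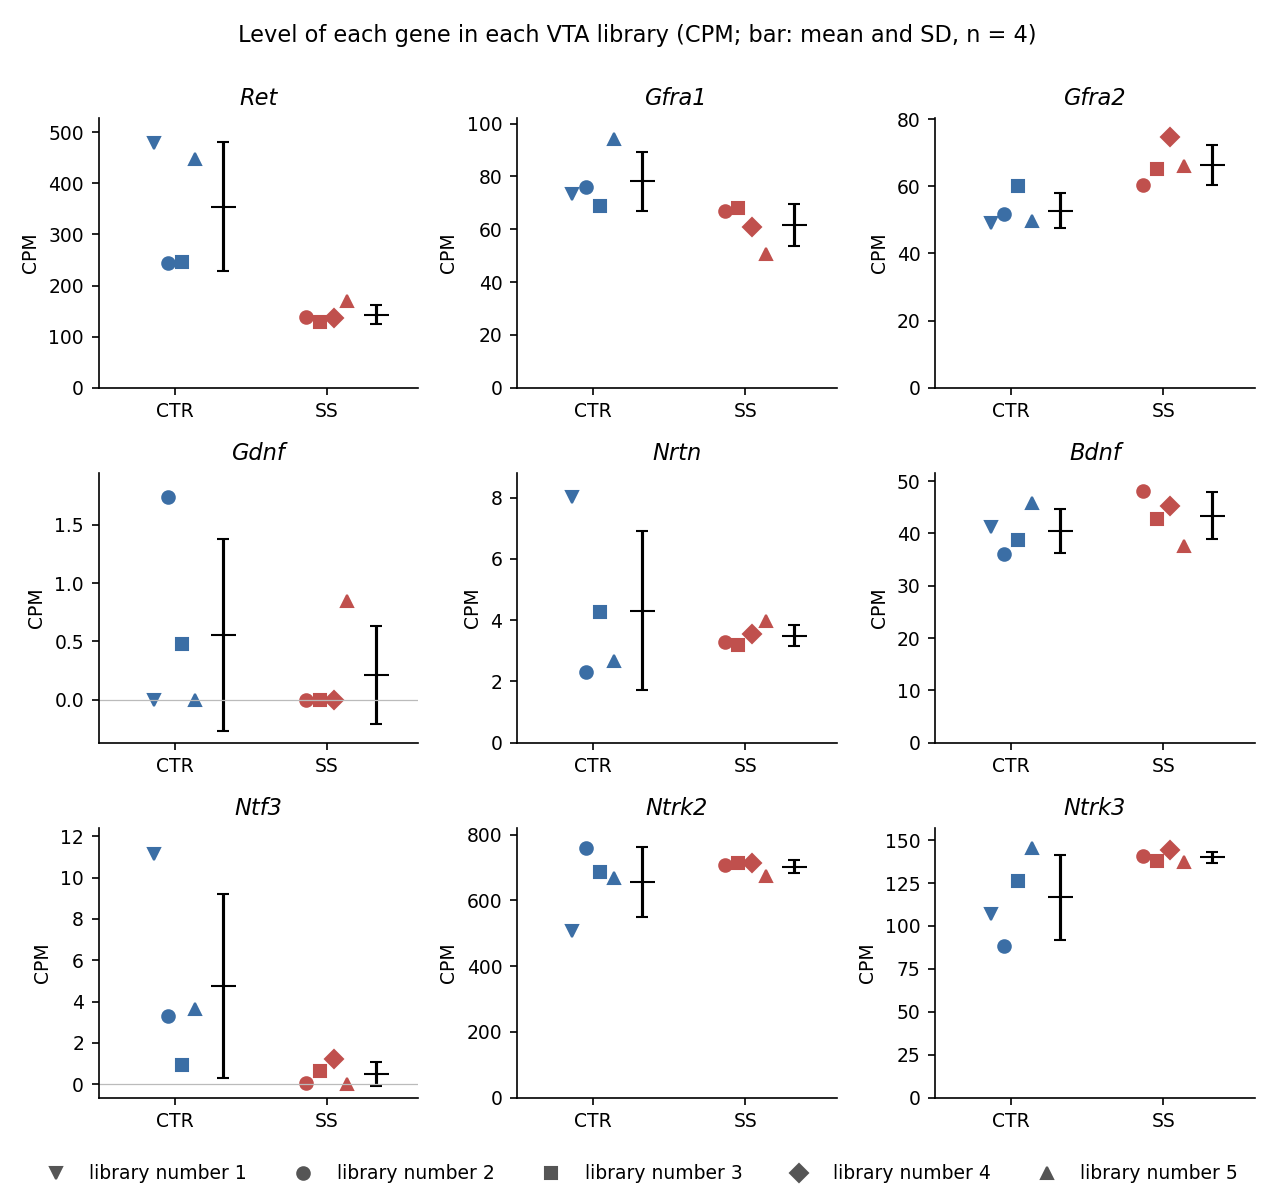
CPM of the 9 genes (y axis, linear) in each CTR (blue) and SS (red) library, with a symbol for each library number and bars for the mean and SD of 4 libraries. Ret ranged from 245 to 479 CPM in CTR and from 128 to 170 in SS, whereas Bdnf, Nrtn, Ntrk2 and Ntrk3 overlapped between the groups.

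Ret, the signalling subunit of the GDNF-family receptors, reached 479, 245, 246 and 448 CPM in the CTR libraries, compared with 138, 128, 136 and 170 in the SS libraries. The CTR libraries formed a higher pair (CTR-1 and CTR-5) and a lower pair, and even the lower pair lay above all SS libraries. The SS libraries were close to each other. The CTR mean was 354 ± 127 CPM and the SS mean 143 ± 18.7 (SD, n = 4). The log2 fold change was -1.31 (SE 0.22, 95% interval -1.78 to -0.84), which is a fold of 0.404 with an interval of 0.291 to 0.560. Its p in edgeR was 6.18e-05, the 19th smallest of all tested genes, and its adjusted p was 0.054. An exact two-sided permutation test of the 8 values gave p = 0.029, the smallest that 4 against 4 libraries allow.

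The Ret difference lay at the edge of the threshold, and the call depended on the test, the filter and the libraries kept. DESeq2, which the study used, called it at an adjusted p of 1.13e-06 with a log2 fold change of -1.31, and limma voom called it at 0.041 with -1.27. Leaving out each library in turn gave log2 fold changes from -1.45 to -1.13 (-1.13 without CTR-1). In these fits edgeR's adjusted p was under 0.05 only without CTR-2 (0.032) or CTR-3 (0.035). That adjusted p was 0.077 without CTR-1, 0.084 without CTR-5, and 0.12 to 0.34 without any single SS library. With CTR-5 and SS-5 both left out, the log2 fold change was -1.27 (SE 0.24) and edgeR's adjusted p was 0.20. Ret is also in the gene list that the study drew from these libraries.

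Gfra1, the co-receptor of GDNF, measured 73.2, 76.0, 68.9 and 94.3 CPM in CTR and 66.8, 67.9, 60.8 and 50.6 CPM in SS. The groups did not overlap, but CTR-3 and SS-3 lay next to each other, and the most distant values in either group came from CTR-5 and SS-5. The CTR mean was 78.1 ± 11.2 CPM and the SS mean 61.5 ± 7.93 (SD, n = 4). The log2 fold change was -0.34 (SE 0.14, 95% interval -0.64 to -0.05, edgeR adjusted p = 0.75), and an exact permutation test gave p = 0.029. With CTR-5 and SS-5 left out the log2 fold change shrank to -0.16 (SE 0.12, edgeR adjusted p = 0.70). CTR-5 also had the highest summed CPM of 8 cortical and hippocampal excitatory neuron markers (221, compared with 48.6 to 88.0 in the other CTR libraries and 74.4 to 112 in SS), and the part of such RNA in the Gfra1 difference was not tested.

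Gfra2, the co-receptor of neurturin, went the other way. It measured 48.9, 51.8, 60.22 and 49.7 CPM in CTR and 60.23, 65.1, 74.6 and 66.0 CPM in SS. SS lay above CTR, by a margin within rounding between CTR-3 and SS-2. The CTR mean was 52.7 ± 5.19 CPM and the SS mean 66.5 ± 5.96 (SD, n = 4). The log2 fold change was 0.34 (SE 0.12, 95% interval 0.08 to 0.59, edgeR adjusted p = 0.74), and an exact permutation test gave p = 0.029. With CTR-5 and SS-5 left out the log2 fold change was 0.31 (SE 0.14, edgeR adjusted p = 0.48).

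The balance of receptor and co-receptors was read within each library as a log2 ratio of CPM, which hardly depends on library scaling. The ratios were computed for 7 pairs of genes that were chosen after the values had been seen, so they are given as a description with no test. Ret over Gfra2 was 3.29, 2.24, 2.03 and 3.17 in CTR and 1.20, 0.97, 0.87 and 1.37 in SS. The mean difference was -1.58, and -1.51 with CTR-5 and SS-5 left out. That the groups did not overlap follows from the values of Ret and Gfra2 themselves. Gfra1 over Gfra2 was 0.56 ± 0.30 in CTR and -0.12 ± 0.26 in SS (SD, n = 4). Thus Gfra1 reads exceeded Gfra2 reads in every CTR library, by log2 ratios of 0.19 to 0.92, whereas SS libraries ranged from -0.38 to 0.15, and the difference was -0.68, again with groups whose separation follows from the single genes. With CTR-5 and SS-5 left out it was -0.47. Ret over Gfra1 overlapped between groups, at 2.12 ± 0.46 in CTR and 1.22 ± 0.37 in SS (SD, n = 4), and the difference of -0.90 was -1.04 with CTR-5 and SS-5 left out.

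**Figure D2:**
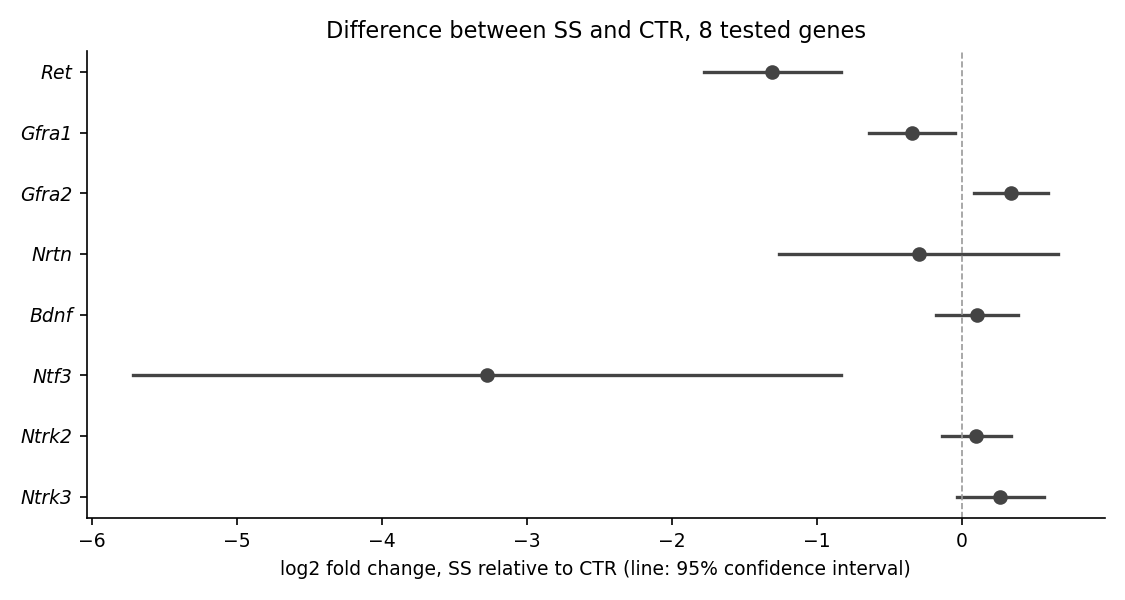
Log2 fold change of the 8 tested genes, SS relative to CTR (x axis), with the 95% confidence interval from edgeR as a line and 0 as a dashed line. The intervals of Ret, Gfra1 and Ntf3 lie below 0, that of Gfra2 lies above 0, and those of Nrtn, Bdnf, Ntrk2 and Ntrk3 include 0.

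The ligands of Ret had few counts. Gdnf had 0, 43, 11 and 0 counts in the CTR libraries, and 22 in SS-5 with 0 in the other SS libraries. Detection was thus irregular in both groups. The 3 libraries with counts, CTR-2, CTR-3 and SS-5, held 1.74, 0.475 and 0.847 CPM, and a count of 0 allows up to 0.0622 to 0.155 CPM depending on the library (3 counts, for counting error only). Gdnf failed the filter and was not tested.

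Nrtn, which encodes neurturin, was detected in every library with 57 to 155 counts. It measured 8.01, 2.30, 4.28 and 2.67 CPM in CTR and 3.28, 3.20, 3.54 and 3.97 CPM in SS. The SS libraries lay inside the CTR range. The log2 fold change was -0.30 with a 95% interval of -1.27 to 0.66 (SE 0.44, edgeR adjusted p = 0.91). Without CTR-1 the direction turned, with a log2 fold change of 0.18, and with CTR-5 and SS-5 left out it was -0.54.

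Bdnf, the ligand of TrkB, was well covered at 799 to 2059 counts per library. CTR libraries measured 41.3, 36.0, 38.8 and 45.8 CPM, and SS libraries 48.1, 42.7, 45.2 and 37.7 CPM. The groups overlapped. The difference was 0.10 on the log2 scale (SE 0.13, 95% interval -0.18 to 0.38, edgeR adjusted p = 0.90), and 0.23 (SE 0.14) with CTR-5 and SS-5 left out. Without CTR-2 it was 0.050, without SS-2 0.052, without CTR-5 0.17 and without SS-5 0.17.

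Ntf3, which encodes NT-3, had the largest fold among the members on few counts. It had 216, 82, 21 and 143 counts in the CTR libraries, compared with 3, 31, 33 and 0 in the SS libraries. These correspond to 11.2, 3.31, 0.907 and 3.64 CPM in CTR and to 0.0717, 0.643, 1.24 and 0 CPM in SS. CTR-1 stood highest and the groups overlapped, since CTR-3 lay below SS-4. The SS mean of 0.489 ± 0.579 CPM was 10.3% of the CTR mean of 4.76 ± 4.44 CPM (SD, n = 4). On the log2 scale the difference was -3.28 (SE 1.12, 95% interval -5.71 to -0.84, edgeR adjusted p = 0.74), and an exact two-sided permutation test gave p = 0.057. It was -2.42 without CTR-1 and -2.98 without CTR-5 and SS-5.

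Both Trk receptors had at least 2067 counts in every library, and their groups overlapped. Ntrk2 measured 507, 760, 687 and 669 CPM in CTR and 709, 714, 712 and 673 CPM in SS. CTR-1 was the lowest library and CTR-2 the highest, with all SS libraries between them. SS differed from CTR by 0.10 on the log2 scale (SE 0.11, 95% interval -0.14 to 0.34, edgeR adjusted p = 0.88). Without CTR-1 it was -0.0056, and with CTR-5 and SS-5 left out it was 0.13.

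Ntrk3 measured 107, 88.4, 126 and 146 CPM in CTR and 141, 138, 144 and 137 CPM in SS. CTR-5 was the only CTR library above the SS values. The CTR mean was 117 ± 24.7 CPM and the SS mean 140 ± 3.30 (SD, n = 4). SS exceeded CTR by 0.26 on the log2 scale (SE 0.14, 95% interval -0.04 to 0.56, edgeR adjusted p = 0.75), and 0.40 with CTR-5 and SS-5 left out (edgeR adjusted p = 0.35). It was 0.15 without CTR-2. The log2 ratio of Ntrk2 over Ntrk3 was 2.50 ± 0.42 in CTR and 2.32 ± 0.034 in SS (SD, n = 4), and that of Bdnf over Ntrk2 was -4.01 ± 0.34 and -4.02 ± 0.12.

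Levels of different genes were compared per length, as CPM per kb of all annotated exons of the gene. Ret stood highest in CTR at 52.4 ± 18.7 CPM per kb and Ntrk2 followed at 34.0 ± 5.52, with overlapping libraries. In SS this order was the opposite, with Ntrk2 at 36.4 ± 1.01 CPM per kb and Ret at 21.2 ± 2.76 (SD, n = 4 each). On the length of the longest transcript, however, Ntrk2 stood above Ret in CTR too, at 74.998 and 65.0 CPM per kb. Gfra2 and Gfra1 came next and were close in CTR, at 14.9 ± 1.47 and 14.3 ± 2.05 CPM per kb. In SS they separated to 18.8 ± 1.68 for Gfra2 and 11.2 ± 1.45 for Gfra1, and on the longest transcript the CTR order turned, with Gfra1 at 16.8 and Gfra2 at 15.2 CPM per kb. Bdnf (6.51 ± 0.666 in CTR and 6.99 ± 0.713 in SS), Nrtn (4.22 ± 2.55 and 3.42 ± 0.340) and Ntrk3 (3.87 ± 0.818 and 4.64 ± 0.110) formed the middle of the range in CPM per kb. Nrtn and Ntrk3 did not differ beyond their spread in CTR. Ntf3 (2.77 ± 2.59 and 0.286 ± 0.338) and Gdnf (0.151 and 0.0577) were the lowest.

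Ret was next read against markers of dopamine neurons, the cells known for it in this region. Th, the rate-limiting enzyme of dopamine synthesis, measured 472, 161, 169 and 322 CPM in CTR and fell to 14.1 to 25.5 CPM in SS. Its log2 fold change was -3.99, and edgeR's adjusted p was 0.00053. Slc6a3, the dopamine transporter, measured 598, 336, 243 and 613 CPM in CTR and 2.72 to 11.5 CPM in SS (log2 fold change -6.22, edgeR adjusted p = 0.00053). The same pair of CTR libraries, CTR-1 and CTR-5, was high for Ret, Th and Slc6a3. SS kept 6.33% of the CTR mean of Th and 1.38% of that of Slc6a3, compared with 40.4% for Ret. The other markers of these neurons lay on both sides of Ret: SS kept 2.21% to 15.2% of the CTR mean for Ddc, Slc18a2, Pitx3 and En1, and 45.4% for Foxa2, 66.9% for Foxa1, 91.5% for Lmx1b and 112% for Nr4a2.

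The log2 ratio of Ret over Th was 0.021, 0.60, 0.54 and 0.48 in CTR, but 3.13, 3.01, 3.26 and 2.74 in SS. Ret reads were thus at about the number of Th reads in CTR and several times that number in SS. The difference was 2.63 on the log2 scale, with no overlap between groups, and ranged from 2.50 to 2.73 when single libraries were left out. Ret over Slc6a3 differed by 5.06 in the same direction. Both ratios restate that Th and Slc6a3 fell more than Ret, and they are no further evidence.

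**Figure D3:**
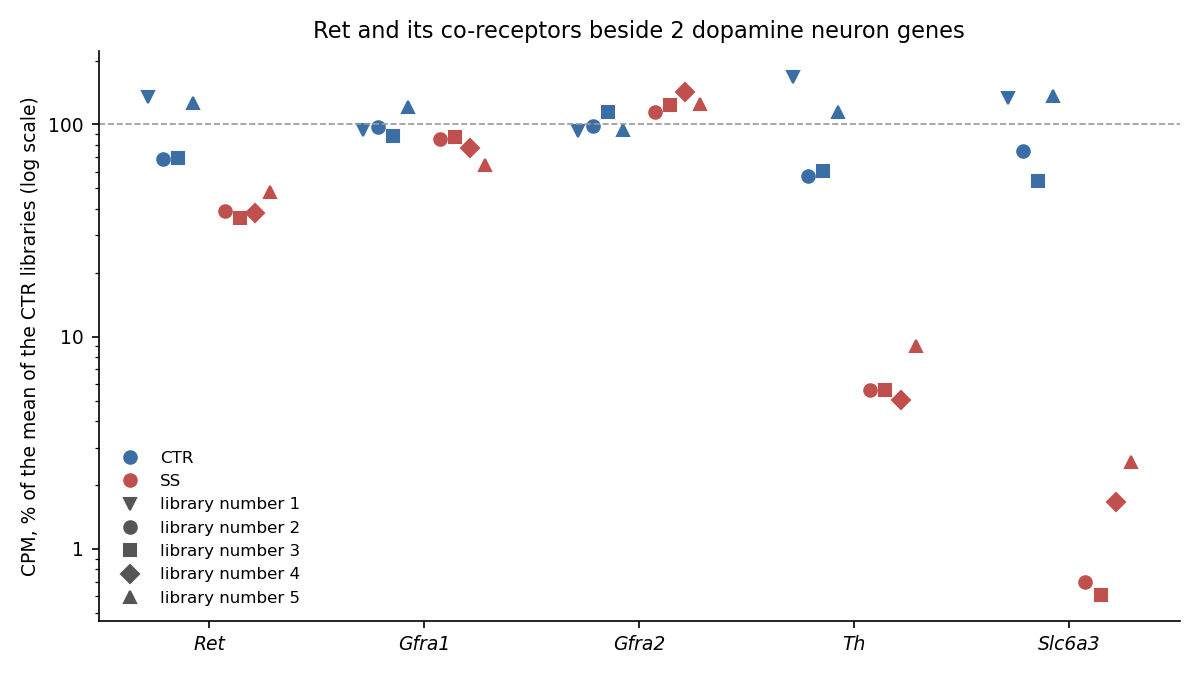
CPM of Ret, Gfra1, Gfra2, Th and Slc6a3 in each CTR (blue) and SS (red) library as a percent of the CTR mean (y axis, log scale), with the CTR mean as a dashed line at 100. Mean SS levels were 40.4% for Ret, 6.33% for Th and 1.38% for Slc6a3, and the symbols of CTR-1 and CTR-5 lie above the CTR mean for these 3 genes.

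All 10 genes of the dopamine neuron list were detected. Their summed level was 789 to 1760 CPM in CTR and 168 to 279 CPM in SS, 5 fell past the adjusted threshold and 7 had all SS libraries below all CTR libraries. Nr4a2 (log2 fold change 0.16) and Lmx1b (-0.13), transcription factors of these neurons, differed little. In bulk punches, fewer cells of a type and less RNA per cell cannot be told apart, and the part of either in the Ret difference was not tested. By stereology in other mice of this model, the study detected no difference in the number of VTA neurons stained for TH. That count covered the parabrachial pigmented and paranigral nuclei in sections, and does not give the number of these cells in a punch. Markers of other cells were read for the same reason. The summed level of 10 hypothalamic and mammillary markers was 83.4 to 159 CPM in CTR and 158 to 194 CPM in SS. These sums overlapped, since CTR-2 lay just above SS-3. All 10 fold changes were above 0, none passed the adjusted threshold, and SS lay above CTR without overlap for Pmch and Otp. Summed levels overlapped for astrocytes (3699 to 4337 CPM in CTR and 3566 to 4113 in SS), oligodendrocytes (22821 to 32357 and 25954 to 28755), microglia (269 to 369 and 257 to 292), endothelial and mural cells (338 to 433 and 409 to 465), GABA neurons (1032 to 1144 and 1076 to 1264), glutamate neurons (535 to 1039 and 644 to 699) and cholinergic or oculomotor neurons (5.93 to 12.6 and 4.06 to 20.5). A shift to one side was not particular to the hypothalamic and mammillary list. All 10 oligodendrocyte markers had fold changes below 0. Of 10 microglia markers 9 were lower and 1 was higher in SS, and of 10 endothelial and mural markers 9 were higher and 1 was lower. The astrocyte, GABA, glutamate and cholinergic or oculomotor lists held markers in both directions. No marker of these lists passed the adjusted threshold. The part of these cells in the values of the members was not tested.

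For each of Ret, Gfra1 and Gfra2, the genes with the most similar profile were found by the root mean square distance of log2 CPM over the 8 libraries, after centring each gene. Ret was followed most closely by Igf1 (0.192 log2 units), Foxa2 (0.222), Cpne7 (0.244), Cplx1 (0.267) and Ndnf (0.281), compared with a spread of 0.711 for Ret itself. Foxa2 is a transcription factor of dopamine neurons, Igf1 and Ndnf encode secreted trophic factors, and Cplx1 encodes a protein of vesicle release. Gfra1 was nearest to Col25a1 (0.0554), Txlng (0.0667), Rerg (0.0782), Lsm11 (0.0836) and Pgm2l1 (0.0890), with a spread of its own of 0.241. The genes nearest to Gfra2 included Cit (0.0673), Gatad2a (0.0819), Rrbp1 (0.0845) and Jag2 (0.0862), compared with a spread of 0.203 for Gfra2. These genes were chosen for their likeness, and their own differences are therefore no further evidence.

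Beyond the members, 104 genes of the same pathways were read in 6 lists, of which 97 passed the filter on low counts. A single one of them, Ndnf, passed the adjusted threshold. At an unadjusted p under 0.05, 5 of the 97 (5.15%) were lower in SS and 3 (3.09%) higher, close to the 3.7% and 2.85% of all genes, and their median log2 fold change was 0.018. SS lay below CTR without overlap for 4 of the 97 (Etv5, Ndnf, Igf1 and Fgf2) and above for 2 (Shc2 and Grb10). Over all tested genes these shares were 2.21% below and 2.47% above.

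**Figure D4:**
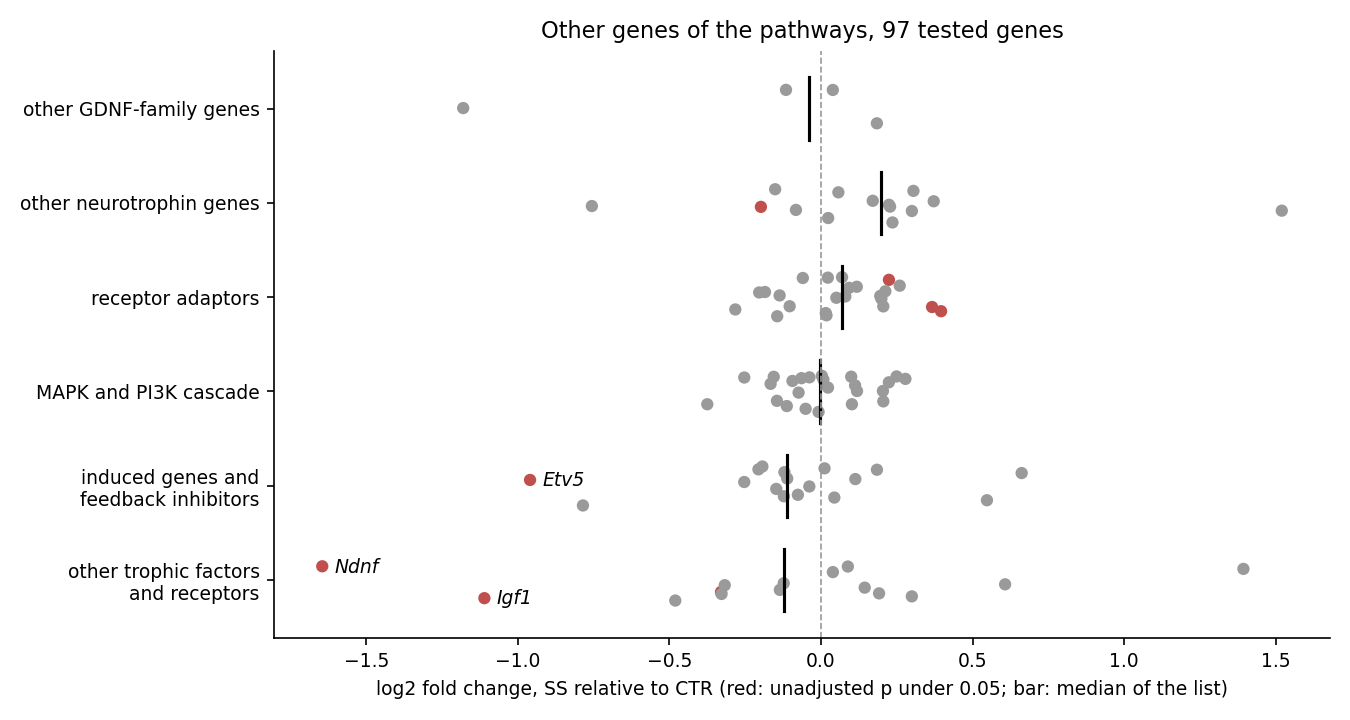
Log2 fold change of 97 other pathway genes, SS relative to CTR (x axis), in 6 lists (rows), with each point a gene, points in red at an unadjusted p under 0.05 and a bar at the median of the list. Medians lie between -0.12 and 0.20, whereas Ndnf (-1.65), Igf1 (-1.11) and Etv5 (-0.96) stand to the left.

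Among the other GDNF-family genes, 4 of 8 passed the filter (Artn, Gfra4, Ncam1 and Sdc3) and 0 had an unadjusted p under 0.05. Pspn, Gfra3, Gfral and Gdf15 did not pass. Ncam1, an adhesion molecule that also serves as a receptor for GDNF, was the most abundant, with a CTR mean of 507 ± 62.7 CPM and an SS mean of 576 ± 11.4 (SD, n = 4; log2 fold change 0.18, edgeR adjusted p = 0.75). The median of the list was -0.04 on the log2 scale.

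Among the 16 other neurotrophin genes, 14 passed the filter, and the median log2 fold change was 0.20. Cpe, a carboxypeptidase of the secretory pathway that also sorts pro-BDNF, was the most abundant of them and the only one with an unadjusted p under 0.05 (log2 fold change -0.20, SE 0.075, edgeR adjusted p = 0.75). It measured 1910 to 2364 CPM in CTR and 1786 to 1916 CPM in SS.

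All 23 adaptors of Ret and Trk receptors passed the filter, with a median of 0.07. Shc2, a phosphotyrosine adaptor, averaged 45.1 ± 3.35 CPM in CTR against 58.1 ± 5.01 in SS without overlap (SD, n = 4; log2 fold change 0.37, edgeR adjusted p = 0.70). Grb10, an adaptor that dampens receptor tyrosine kinases, averaged 179 ± 10.2 and 209 ± 11.96 CPM, also without overlap (log2 fold change 0.22). Sos2, an exchange factor for Ras, overlapped between groups (log2 fold change 0.40). These 3 were the adaptors with an unadjusted p under 0.05. Ptpn11, the most abundant adaptor, was 215 ± 51.2 and 218 ± 8.98 CPM.

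The MAPK and PI3K cascade showed 0 of 24 genes at an unadjusted p under 0.05 in edgeR, 12 on either side of 0 and a median of -0.0026.

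Of 18 genes induced by this signalling or inhibiting it, 17 passed the filter, with Spry3 as the exception, and their median was -0.11. Etv5, an ETS transcription factor known to be induced downstream of Ret and FGF receptors, measured 40.1, 46.4, 33.3 and 46.9 CPM in CTR and 19.9, 23.9, 18.8 and 23.0 CPM in SS. The groups did not overlap. On the log2 scale SS differed by -0.96 (SE 0.15), and the adjusted p was 0.051 in edgeR and 5.88e-06 in DESeq2. Its relatives Etv1 (-0.08) and Etv4 (0.04) differed little on the log2 scale. Etv5 was the only 1 of the 17 with an unadjusted p under 0.05 in edgeR. Of the 17 genes, 11 were lower in SS and 6 were higher. Vgf, a neuropeptide precursor that neurotrophins induce, was the most abundant of the list, with means of 489 ± 142 CPM in CTR against 449 ± 118 in SS (SD, n = 4).

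All 15 other trophic genes of midbrain neurons passed the filter, and the median was -0.12. Ndnf, a secreted neurotrophic factor, measured 68.0, 54.2, 36.9 and 82.8 CPM in CTR and fell to 15.5, 20.5, 18.4 and 22.9 CPM in SS, a difference of -1.65 on the log2 scale (SE 0.23, edgeR adjusted p = 0.021). With CTR-5 and SS-5 left out, or any single SS library, it no longer passed the threshold. Igf1, insulin-like growth factor 1, averaged 13.4 ± 4.55 CPM in CTR against 6.18 ± 0.945 in SS without overlap (SD, n = 4; log2 fold change -1.11, SE 0.28), with an adjusted p of 0.48 in edgeR and 0.048 in DESeq2. Manf, a trophic factor of the endoplasmic reticulum, differed by -0.33 on the log2 scale (edgeR adjusted p = 0.75). Fgfr1, the most abundant gene of this list, averaged 105 ± 6.73 CPM in CTR against 117 ± 8.84 in SS. Etv5, Ndnf and Igf1 are, as Ret is, in the list that the study drew from these libraries, so their directions are not independent evidence.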

How the data were processed

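VTA punches of 8 mice (4 CTR, 4 SS) were profiled by RNA-seq, 1 library per mouse, and grouped by their labels. The authors used Cutadapt for trimming, STAR for alignment (mm10) and htseq-count with Ensembl genes, and they deposited raw counts without normalization. Tool versions are not given in the sources used here. Library totals were 20036086 to 47319997 counts. A floor is 3 counts in a library.

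In R 4.3.3, the filterByExpr function of edgeR 4.0.16 (minimum count 10, minimum total 15) kept 16538 genes. TMM, glmQLFit and glmQLFTest at their defaults compared the groups, with Benjamini-Hochberg adjustment at 0.05 and a 95% interval. The biological coefficient of variation was 0.384. Single values were compared by exact permutation over 70 assignments of log2 CPM (prior count 2). Whether replicates came from separate litters is not labelled, so p-values measure the spread between these samples. The labels do not say whether replicate numbers pair the libraries, and the main test did not use them as pairs. No pair of libraries of the same group agreed within sampling noise, so each was counted as 1 sample.

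The members and lists were chosen with earlier results of these data known. Named were the members, from each pathway list every gene past the threshold, up to 3 more in each direction by unadjusted p under 0.05 and the most abundant gene, Th and Slc6a3, the 5 genes most like Ret, Gfra1 and Gfra2, and sex-linked genes. A few genes under this rule are not reported here. The other dopamine neuron markers, Pmch, Otp, Fgf2, Etv1 and Etv4 were named after their values were seen. Gene lengths, positions and sequences came from GENCODE M21. Alternatives were DESeq2 1.42.0, limma 3.58.1 voom, edgeR's other quasi-likelihood estimate, DESeq2 size factors, upper-quartile scaling, no filter, a mean count of at least 50, each library left out, the replicate number as a block, the 6 libraries other than CTR-5 and SS-5, a prior count of 0.5 and the longest transcript as length. The ratios of gene pairs were added after the data were seen.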

Additional observations from a re-analysis of the deposited data

Results flagged for a closer look

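In 18 groups of 4 libraries (9 genes in 2 conditions), the highest or the lowest library was compared with the rest by Dixon's ratio of its gap to the whole range, with a limit of 0.829. Chance gives about 0.9 such groups among 18. Gdnf in SS-5 stood above the other SS libraries with a ratio of 1, since the other 3 had no count. Ntrk2 in SS-5 stood below the other SS libraries with a ratio of 0.867, at 673 CPM compared with 709 to 714. SS-5 is also the SS library whose sex transcripts went against the label.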

How the results depend on the processing

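Ret was lower in SS under every alternative run, with an adjusted p under 0.05 in DESeq2 (log2 fold change -1.31), limma voom (-1.27), edgeR's other estimate (-1.31), without a filter (-1.30) and at a mean count of at least 50 (-1.32), and with its smallest difference under the replicate block (-1.05). Leaving out 1 library gave -1.45 to -1.13 for Ret, -0.41 to -0.24 for Gfra1, 0.28 to 0.40 for Gfra2, 0.15 to 0.39 for Ntrk3, 0.050 to 0.17 for Bdnf, -4.22 to -2.42 for Ntf3, -0.51 to 0.18 for Nrtn and -0.0056 to 0.18 for Ntrk2. The direction turned for Nrtn without CTR-1 (0.18) and with the replicate block (0.22), and for Ntrk2 without CTR-1 (-0.0056) and with the replicate block (-0.012), where neither passed the threshold. Replicate number 1 occurs only in CTR and number 4 only in SS. The block fit therefore takes no group difference from CTR-1 or SS-4, and both settings leave CTR-1 out of the comparison. What set CTR-1 apart was not tested.

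Genes called lower were 14 in edgeR, 60 in DESeq2, 25 with the other estimate, 22 without a filter, 22 at a mean count of at least 50, 9 with the replicate block and 9 in the 6 libraries. They were 6 to 18 with 1 library left out (8, 7, 6 and 9 when the library left out was SS-2, SS-3, SS-4 or SS-5). Genes called higher were 0 in edgeR, 21 in DESeq2, 2 with the other estimate and 0 to 2 with 1 library left out. At an unadjusted p under 0.05 in edgeR, 471 were higher. Of the 97 other pathway genes, edgeR called 1, DESeq2 3, and voom, the other estimate, both scalings and both filters 2, against 0 with the replicate block, in the 6 libraries or without any single SS library, and 0 to 2 with 1 library left out (2 without CTR-3). Their count at an unadjusted p under 0.05 was 8, and 4 to 16 with 1 library left out (16 without CTR-5, 4 without SS-3, 5 without SS-2 or SS-4). Deviations of same-numbered libraries had correlations of -0.0062, -0.0077 and 0.060 (CTR-5 and SS-5), compared with -0.094 to 0.045 for the other pairs. CTR-5 and SS-5 also share sex transcripts that went against the label. So few same-numbered pairs cannot decide whether the numbers pair the libraries. The block changed no member's call.

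On the longest transcript, levels in CPM per kb moved by more than their SD for Ret in SS (26.2), Gfra1 (16.8 in CTR and 13.3 in SS, above and below Gfra2), Bdnf (9.49 and 10.2), Ntrk2 (74.998 and 80.3) and Ntrk3 (5.93 and 7.11). A prior count of 0.5 left the nearest genes the same. At these depths 3 counts correspond to 0.0622 to 0.155 CPM, which bears on Gdnf and on the low libraries of Ntf3.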
